A study of Mus musculus with 36 samples.

Results

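The genes described here encode respiratory complex I, and they were all genes of the array whose name in the scanner files starts with Nduf. The array held 56 such probes for 38 genes, out of 41174 probes for 27745 gene names, and each gene was represented by its probe with the highest mean intensity. All 38 genes passed the filter on dim probes, as did 16559 genes in all. The 38 comprised 7 core subunits, 28 accessory subunits, 2 assembly factors and Ndufa4, which carries the family name and has since been assigned to complex IV. The files name one assembly factor Ndufa12l, and its current symbol is Ndufaf2.

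RNA of 36 adult C57BL/6J males was measured, 1 mouse per array, in the white fat pad that lies along the epididymis. In the HF-DR group, 12 mice received a purified diet, 30 energy percent fat, in restricted amounts for 12 weeks, at a level the labels give as 70 energy percent, with extra vitamins and minerals so that their intake of these was matched. In the HF-AL group, 12 mice ate the same diet freely for those 12 weeks. The t0 group of 12 mice was killed before that period. All 36 mice had first eaten this diet freely for 3 weeks, so every group had been exposed to fat-rich food and no mice on another diet were compared. Mice in HF-DR and HF-AL were of the same feeding duration, whereas both groups differed from t0 in age as well (there, age and length of feeding cannot be told apart). The labels do not give the hour of the last meal, which cannot be told apart from restriction.

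Complex I, the NADH:ubiquinone oxidoreductase, is the entry point of electrons from NADH into the mitochondrial respiratory chain. Its matrix arm takes electrons from NADH, passes them along iron-sulphur clusters and hands them to ubiquinone, and its membrane arm pumps protons. Core subunits do this chemistry, accessory subunits surround and stabilise them, and assembly factors bind intermediates and leave the finished enzyme. The core subunits of the membrane arm are encoded by mitochondrial DNA and have no Nduf name. White adipocytes hold few mitochondria compared with brown adipocytes, and their respiratory capacity is known to change with diet and adiposity.

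Promoter sequence is shown for the 3 genes with the largest differences between HF-DR and HF-AL that the RefSeq promoter table lists (Ndufa11, Ndufa10 and Ndufa6), and for the core subunit Ndufs3, which has a motif upstream of its start. The table, on build GRCm38.p6, held 36 promoters for 34 of the 38 genes. Ndufs1, Ndufb9 and Ndufa2 were among those not in it. Each line gives the 250 bases before the annotated start, read 5′ to 3′ on the strand of the gene, with motif matches in capitals. The stretches are Ndufa11 at chr17:56717512-56717761 on the plus strand, Ndufa10 at chr1:92473759-92474008, Ndufa6 at chr15:82354292-82354541 and Ndufs3 at chr2:90904722-90904971, the last 3 on the minus strand.
Ndufa11: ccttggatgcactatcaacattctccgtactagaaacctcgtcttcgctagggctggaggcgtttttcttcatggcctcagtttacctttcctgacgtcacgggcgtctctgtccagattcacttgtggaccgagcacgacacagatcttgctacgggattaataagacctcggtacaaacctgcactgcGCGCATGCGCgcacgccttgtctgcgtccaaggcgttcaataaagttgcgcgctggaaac
Ndufa10: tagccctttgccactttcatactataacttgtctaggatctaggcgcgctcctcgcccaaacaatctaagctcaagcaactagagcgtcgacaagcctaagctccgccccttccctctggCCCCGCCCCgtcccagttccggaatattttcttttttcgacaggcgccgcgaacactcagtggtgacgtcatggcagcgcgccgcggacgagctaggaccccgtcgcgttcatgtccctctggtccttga
Ndufa6: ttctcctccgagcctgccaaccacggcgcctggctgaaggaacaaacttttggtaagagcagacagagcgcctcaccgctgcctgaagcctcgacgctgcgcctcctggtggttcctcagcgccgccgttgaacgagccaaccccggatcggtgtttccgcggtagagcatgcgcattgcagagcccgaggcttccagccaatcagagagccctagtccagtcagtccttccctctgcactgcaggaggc
Ndufs3: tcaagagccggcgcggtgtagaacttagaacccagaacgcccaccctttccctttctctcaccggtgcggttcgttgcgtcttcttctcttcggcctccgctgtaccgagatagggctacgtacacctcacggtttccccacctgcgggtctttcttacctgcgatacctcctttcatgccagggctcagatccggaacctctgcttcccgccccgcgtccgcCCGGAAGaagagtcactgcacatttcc

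Capitals mark an overlapping pair of matches to the core motif of NRF1, a transcription factor of many mitochondrial genes, in Ndufa11, where it begins at base -60 counted from the start. In Ndufa10 they mark a GC box that begins at base -130, and in Ndufs3 a motif of ETS factors such as GABPA that begins at base -27. The core subunit Ndufs8 has an ETS match on the opposite strand within its transcript, from base 16, shown in capitals in the 30 bases at chr19:3912741-3912770 on the minus strand.
Ndufs8: ttaggctccgcCTTCCGGttgaaccgcatc

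The upstream stretch of Ndufa6 held none of the 5 motifs searched. Past the start, Ndufa6 had a GC box from base 42, and Ndufs3 had a second ETS match from base 2 on the opposite strand. Over the whole windows of 300 bases, which also hold the 50 bases after the start, and on both strands, the NRF1 core GCGCATGCG was in 2 of 36 promoters of the complex I genes (5.56%), against 1.75% of all 32851 promoters. The ETS motif CCGGAAG was in 5 (13.9%, against 8.86%), the ERR alpha element AAGGTCA in 3 (8.33%, against 4.72%) and the GC box GGGGCGGGG in 6 (16.7%, against 11.4%). The motif of YY1, AAGATGGC, was in 7 (19.4%, against 2.75%). The GC content of the 250 bases had a median of 57.8% over the 36 promoters and 52.4% over all promoters.

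All 7 matches to the YY1 motif lay on the strand of the gene, at between 23 and 46 bases into the transcript. They are shown with their surroundings, 30 bases each on GRCm38.p6, because they were the most frequent match, and the capitals mark the motif. The motif contains ATG, so it can also coincide with a start codon. A match is a description of the letters and says nothing of binding. The sites lie at chr3:51408915-51408944 for Ndufc1, chr6:126849097-126849126 for Ndufa9, chr7:3617384-3617413 for Ndufa3, chr10:80249462-80249491 for Ndufs7, chr13:73328433-73328462 for Ndufs6, chr13:114388045-114388074 for Ndufs4 and chr19:44555393-44555422 for Ndufb8. Those of Ndufa3 and Ndufs7 are on the plus strand and the other 5 on the minus strand.
Ndufc1: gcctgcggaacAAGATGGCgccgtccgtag
Ndufa9: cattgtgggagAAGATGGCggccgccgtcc
Ndufa3: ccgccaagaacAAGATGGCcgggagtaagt
Ndufs7: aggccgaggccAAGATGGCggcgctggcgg
Ndufs6: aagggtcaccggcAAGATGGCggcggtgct
Ndufs4: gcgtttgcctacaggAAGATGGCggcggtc
Ndufb8: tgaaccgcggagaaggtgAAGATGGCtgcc

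Each value below is a log2 ratio of 1 animal, labelled with the red dye Cy5, to a pool of all samples labelled with the green dye Cy3, after loess normalisation within the array. Between 44.6% and 86.3% of the probes on an array had Cy5 signal well above background, the median Cy5 signal lay between 101.9 and 372, and the number of arrays limits the precision. No spot of the 38 genes was saturated, and all 38 were well above background on all 36 arrays. Among 38 genes and 36 arrays, 8 values were missing because their spots were marked as outliers: Ndufa13, Ndufb7, Ndufb9 and Ndufs4 on HF-AL 1, Ndufb10 and Ndufv1 on HF-DR 8, and Ndufa8 and Ndufab1 on HF-DR 9. A gene was called when its adjusted p in limma, over all 16559 genes, was under 0.05.

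The tissue label was checked against markers. The adipocyte genes Adipoq, Plin and Fabp4 were well above background on 12 of 12 arrays in each group. Arrays HF-DR 8 and HF-DR 9 stood apart from the other HF-DR arrays. Their mean log2 ratio over 5 genes of the epididymis and seminal vesicle was 5.94 and 5.45, against -0.25 on HF-DR 7 and -5.77 to -4.13 on the other HF-DR arrays, and their mean over 8 adipocyte genes was -1.09 and -0.99, against -0.16 to 0.11. Results are therefore also given without these arrays, an alternative chosen after seeing the data. In HF-AL, the mean over testis and sperm genes was 1.00, 2.45 and 1.54 on arrays 5, 7 and 9, against -0.86 to -0.68 on the other HF-AL arrays, and HF-AL 7 and 9 had the lowest adipocyte means of their group, -0.12 and -0.05. On t0 6 the epididymis and seminal vesicle mean was -2.81, the highest of t0. Specks, spots far below their local background, were found on 12 arrays (6 HF-DR, 4 HF-AL and 2 t0). They numbered 84 in all, where each array held 45018 spots, and were left out of the background fit. Results were also computed without 10 of these, which keeps HF-DR 5 and 6, and, chosen after seeing the data, without all 12. HF-DR 8 and 9 had no specks, so both settings keep them among fewer HF-DR arrays.

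Restricted mice had higher levels of nearly the whole complex I gene set than mice fed freely. Of the 38 genes, 35 rose in HF-DR relative to HF-AL and 0 fell, where 28.8% of all genes tested rose and 36.0% fell. The median log2 difference of the 38 genes was 0.56 (range 0.0019 to 1.03), and that of all genes was -0.037. A rise of at least 1.5-fold was called for 18 of the 38, against 7.97% of all genes. In bulk tissue more cells of a type and more RNA per cell cannot be told apart.

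The median of the 38 genes on each array lay between -0.06 and 0.66 (median of the arrays 0.54) in HF-DR, between -0.13 and 0.02 (median -0.05) in HF-AL and between -0.24 and 0.06 (median -0.07) in t0. The only 2 HF-DR arrays with a median under 0.40 were HF-DR 8 at -0.06 and HF-DR 9 at 0.12. Every HF-DR array except HF-DR 8 lay above every HF-AL and t0 array. Leaving HF-DR 8 and 9 out, the count was 36 up and 0 down, and the median difference 0.61. Of all 16559 genes, 5054 were then up and 6366 down.

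**Figure D1:**
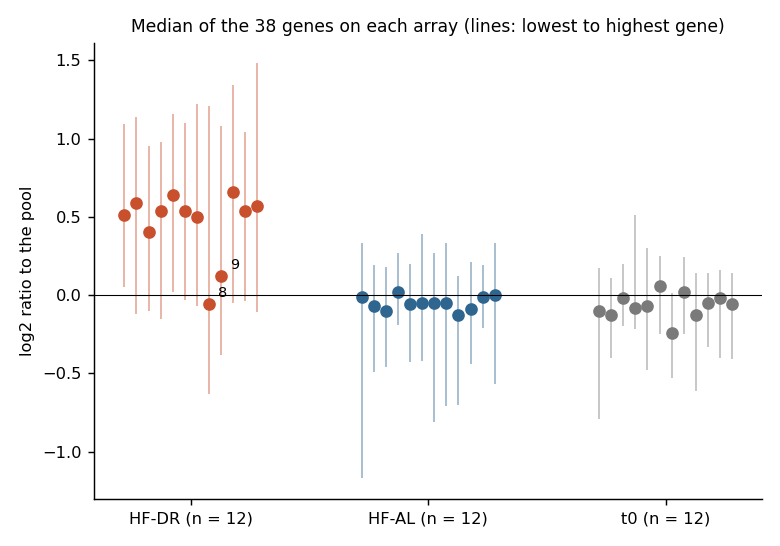
Median log2 ratio to the pool of the 38 complex I genes on each array (points), with the lowest and highest gene on that array (lines), for the HF-DR, HF-AL and t0 groups of 12 arrays each. The HF-DR points lie between 0.40 and 0.66 except HF-DR 8 and 9, which are numbered, and the HF-AL and t0 points lie between -0.24 and 0.06.

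In 5 genes (Ndufa1, Ndufa10, Ndufa11, Ndufs6 and Ndufs4, the last without a value on HF-AL 1) every HF-DR array lay above every HF-AL array, against 6.23% of all genes tested. Without HF-DR 8 and 9 this held for 27 of the 38, against 11.7% of all genes. The slide could be compared within 3 slides that held 1 array of each group. There the median difference of the 38 genes was 0.60, 0.60 and 0.39, and 38, 37 and 36 genes were above 0.

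The core subunits of electron input, which oxidise NADH, all rose. Ndufv1, which binds NADH and the flavin, had log2 ratios of -0.05 to 0.59 (median 0.35, 11 arrays) in HF-DR, -0.46 to 0.03 (median -0.19) in HF-AL and -0.53 to -0.12 (median -0.27) in t0. The lowest HF-DR value overlapped the HF-AL range, and 10 of 11 HF-DR arrays lay above the highest HF-AL array. The difference between HF-DR and HF-AL was 0.58 ± 0.060 (SE), or 1.5-fold (adjusted p = 1.95e-10).

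Ndufv2, which carries an iron-sulphur cluster beside Ndufv1, had log2 ratios of 0.13 to 0.95 (median 0.80) in HF-DR, -0.25 to 0.15 (median -0.05) in HF-AL and -0.40 to 0.06 (median -0.12) in t0. Of 12 HF-DR arrays, 11 lay above all HF-AL arrays, and all 12 above all t0 arrays. The difference between HF-DR and HF-AL was 0.77 ± 0.068, or 1.71-fold (adjusted p = 2.95e-12).

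Ndufs1, the large subunit that passes electrons on through several iron-sulphur clusters, had log2 ratios of 0.04 to 0.85 (median 0.62) in HF-DR, -0.42 to 0.24 (median -0.17) in HF-AL and -0.24 to 0.19 (median -0.13) in t0. The groups overlapped only through the lowest HF-DR arrays, and 10 of 12 lay above the highest HF-AL array. It was 1.62-fold higher in HF-DR than in HF-AL (log2 difference 0.70 ± 0.083, adjusted p = 3.78e-09).

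The 4 core subunits that lead to ubiquinone also rose (median difference between HF-DR and HF-AL 0.72). Ndufs7, which holds the terminal iron-sulphur cluster next to ubiquinone, had log2 ratios of -0.07 to 0.82 (median 0.53) in HF-DR, -0.71 to 0.06 (median -0.10) in HF-AL and -0.38 to 0.09 (median -0.04) in t0. Ndufs8, which carries the clusters before it, had -0.01 to 1.05 (median 0.90) in HF-DR, -0.32 to 0.04 (median -0.10) in HF-AL and -0.49 to 0.04 (median -0.09) in t0. In both genes 11 of 12 HF-DR arrays lay above all arrays of HF-AL and of t0, and the array that overlapped was HF-DR 9 in Ndufs7 and HF-DR 8 in Ndufs8. Ndufs7 was 1.52-fold higher in HF-DR than in HF-AL (0.61 ± 0.084, adjusted p = 7.34e-08), and Ndufs8 was 1.78-fold higher (0.83 ± 0.089, adjusted p = 3.04e-10).

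Ndufs3, a core subunit without a cluster that helps found the assembly of the matrix arm, moved least among the core subunits. Its log2 ratios were -0.08 to 0.55 (median 0.31) in HF-DR, -0.53 to 0.14 (median -0.13) in HF-AL and -0.42 to 0.12 (median -0.11) in t0. The groups overlapped, with 9 of 12 HF-DR arrays above the highest HF-AL array. The difference was 0.39 ± 0.071 (1.31-fold, adjusted p = 1.05e-05). Without HF-DR 8 and 9 the difference between HF-DR and HF-AL was 0.45 in Ndufs3, 0.70 in Ndufs7 and 0.93 in Ndufs8.

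**Figure D2:**
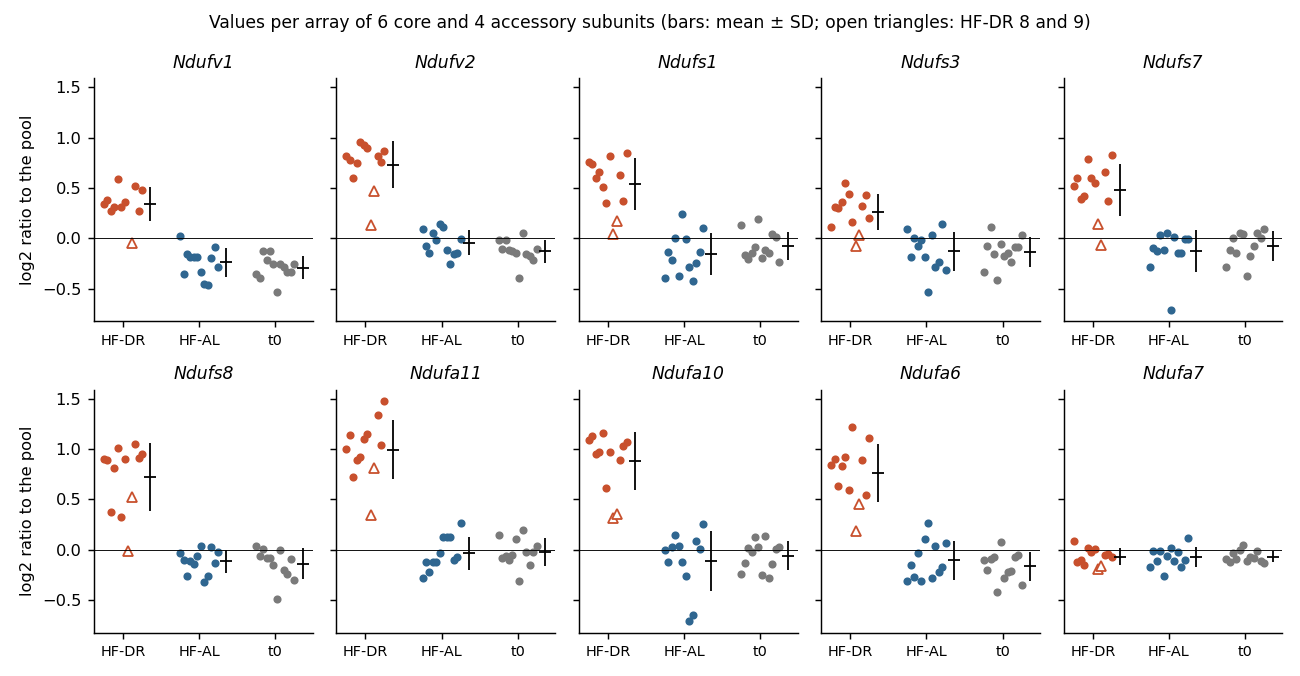
Log2 ratio to the pool on each array for 6 core subunits and for Ndufa11, Ndufa10, Ndufa6 and Ndufa7, with HF-DR, HF-AL and t0 from left to right. Bars at the right of each group give the mean ± SD of 12 arrays (11 for Ndufv1 in HF-DR), and open triangles mark HF-DR 8 and 9. In Ndufa11 and Ndufa10 every HF-DR array is above every HF-AL array, and in Ndufa7 the 3 groups overlap fully.

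Among the 8 accessory subunits of the matrix arm, 7 rose (median of the 8 differences 0.60). Ndufa6, a LYR-motif protein that anchors an acyl carrier protein, had log2 ratios of 0.18 to 1.22 (median 0.84) in HF-DR, -0.31 to 0.27 (median -0.16) in HF-AL and -0.42 to 0.08 (median -0.15) in t0. Only 1 HF-DR array fell within the HF-AL range. The difference between HF-DR and HF-AL was 0.87 ± 0.086 (1.82-fold, adjusted p = 6.33e-11).

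Ndufs4, a late-added subunit whose loss in mice causes a fatal encephalopathy, had log2 ratios of 0.12 to 0.97 (median 0.75) in HF-DR, -0.27 to 0.02 (median -0.08, 11 arrays) in HF-AL and -0.24 to 0.12 (median -0.06) in t0. The HF-DR range lay wholly above the HF-AL range, and 11 of 12 HF-DR arrays lay above the t0 range. It was 1.71-fold higher in HF-DR than in HF-AL (0.78 ± 0.073, adjusted p = 2e-11). Ndufs6, a zinc-binding subunit added with it, was 0.32 to 0.77 in HF-DR, -0.29 to 0.20 in HF-AL and -0.47 to 0.18 in t0, again with no overlap, and its difference was 0.54 (1.45-fold).

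Ndufa12, the paralog of an assembly factor, rose by 0.73 between HF-DR and HF-AL on the log2 scale, and Ndufa5 by 0.61. Ndufa9, which binds NADPH near the ubiquinone site, had log2 ratios of 0.17 to 0.93 (median 0.72) in HF-DR, -0.13 to 0.25 (median 0.05) in HF-AL and -0.18 to 0.30 (median 0.09) in t0. All but 1 HF-DR array lay above every HF-AL array, and its difference was 0.59 ± 0.070 (adjusted p = 3.39e-09). Ndufa2, a subunit with a thioredoxin-like fold, rose less, by 0.15 ± 0.054 (1.11-fold, adjusted p = 0.0167), and 3 of 12 HF-DR arrays lay above the highest HF-AL array. Its call was lost with the processed signals of Feature Extraction (adjusted p = 0.0615) and without 10 or all 12 arrays with specks (adjusted p = 0.0726 and 0.353).

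Ndufa7 did not pass the test. Its log2 ratios were -0.19 to 0.08 (median -0.06) in HF-DR, -0.26 to 0.12 (median -0.08) in HF-AL and -0.13 to 0.05 (median -0.09) in t0. The 3 groups overlapped fully, and the difference between HF-DR and HF-AL was 0.0077 ± 0.038 (adjusted p = 0.869). Its SD of 0.08 in HF-DR was the lowest of the 38 genes. A second Ndufa7 probe gave 0.12 ± 0.066 (adjusted p = 0.111). In the Cy5 channel alone, scaled to its upper quartile, and in the authors' log2 values Ndufa7 was called, at 0.20 and 0.30. Without all 12 arrays with specks it was at -0.027 and not called.

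Of the 9 accessory subunits of the proximal membrane arm, 8 rose (median difference 0.50), and they included the genes at the top of the set. Ndufa11, a membrane subunit that lies where complex I meets complex III in supercomplexes, had log2 ratios of 0.35 to 1.48 (median 1.02) in HF-DR, -0.28 to 0.27 (median -0.08) in HF-AL and -0.31 to 0.20 (median -0.04) in t0. Every HF-DR array lay above every array of both other groups. Its probe, at chr17:56402942-56403001 on mm8, gave a difference of 1.03 ± 0.084 (2.04-fold, adjusted p = 4.52e-13), and its second probe, which overlaps the first, also gave 1.03.

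Ndufa10, which resembles deoxyribonucleoside kinases, had log2 ratios of 0.32 to 1.16 (median 0.97) in HF-DR, -0.71 to 0.26 (median 0.00) in HF-AL and -0.28 to 0.14 (median -0.01) in t0. The HF-DR range lay above both others, although 2 HF-AL arrays were well below the rest. It was 1.98-fold higher in HF-DR than in HF-AL (0.99 ± 0.10, adjusted p = 1.08e-10). Ndufa1, a small subunit essential for assembly in mammalian cells, was 0.36 to 1.21 in HF-DR, -0.27 to 0.13 in HF-AL and -0.15 to 0.19 in t0, without overlap (difference 0.77, 1.70-fold). Its highest value was on HF-DR 8, and without HF-DR 8 and 9 its difference was 0.68.

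Ndufa8, a subunit with paired cysteine motifs of the intermembrane space, rose by 0.59 between HF-DR and HF-AL. Ndufc1 rose by 0.50 and Ndufc2 by 0.41. Ndufs5, also of the intermembrane space, rose by 0.26 ± 0.088 (adjusted p = 0.0101) and Ndufa3 by 0.24 ± 0.073 (adjusted p = 0.00429). Without 10 of the 12 arrays with specks both calls were lost, with adjusted p of 0.101 in Ndufs5 and 0.0503 in Ndufa3, and without all 12 likewise (0.378 and 0.131). The call of Ndufa3 was also lost with the slide as a block (adjusted p = 0.0783).

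Ndufa13, also known as GRIM-19, a subunit at the base of the membrane arm, did not pass the test. Its log2 ratios were -0.51 to 0.67 (median 0.11) in HF-DR, -0.27 to 0.16 (median 0.08, 11 arrays) in HF-AL and -0.25 to 0.15 (median -0.04) in t0. The HF-DR arrays spread both above and below the other groups. The difference between HF-DR and HF-AL was 0.066 ± 0.087 (adjusted p = 0.519), and without HF-DR 8 and 9 it was 0.17 (adjusted p = 0.0266). It was also called with the slide as a block, at 0.25, in the Cy5 channel alone, at 0.24, and in the authors' values, at 0.39. Without all 12 arrays with specks it was at -0.11 and not called.

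Of the 11 accessory subunits of the distal membrane arm, 10 rose (median difference 0.38). Ndufb9, a LYR-motif protein, had log2 ratios of -0.41 to 0.92 (median 0.59) in HF-DR, -0.81 to 0.07 (median -0.14, 11 arrays) in HF-AL and -0.79 to 0.10 (median -0.26) in t0, with 11 of 12 HF-DR arrays above all others. Its difference between HF-DR and HF-AL was 0.76 ± 0.12 (1.69-fold, adjusted p = 1.38e-06). Ndufab1, the mitochondrial acyl carrier protein that also serves fatty acid and lipoate synthesis, had 0.03 to 0.89 (median 0.74, 11 arrays) in HF-DR, -0.33 to 0.16 (median -0.07) in HF-AL and -0.21 to 0.10 (median -0.04) in t0. The lowest HF-DR array overlapped both other groups, and the difference was 0.73 ± 0.070 (1.66-fold, adjusted p = 3.76e-11). Its other passing probes gave 1.47 and 0.92.

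The remaining distal subunits line the membrane arm and have mostly structural roles. Ndufb6 rose by 0.70 on the log2 scale, Ndufb5 by 0.62, Ndufb8 by 0.42, Ndufb11 by 0.37 and Ndufb4 by 0.32, the last a call lost without all 12 arrays with specks (adjusted p = 0.0772). Ndufb10 had log2 ratios of 0.18 to 0.89 (median 0.44, 11 arrays) in HF-DR, -0.20 to 0.30 (median 0.12) in HF-AL and -0.21 to 0.13 (median 0.01) in t0. Its HF-DR range lay above the t0 range and overlapped the HF-AL range, and the difference between HF-DR and HF-AL was 0.38 ± 0.067 (adjusted p = 7.71e-06). Ndufb7, with paired cysteine motifs, rose by 0.21 ± 0.070 (adjusted p = 0.00917), a call lost without 10 or all 12 arrays with specks (adjusted p = 0.0654 and 0.156). Ndufb2 rose by 0.38 ± 0.059 with its brightest probe and was -0.35 ± 0.076 with a dimmer probe (adjusted p = 0.000115), so its probes disagreed in sign.

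Ndufb3 did not pass the test. Its log2 ratios were -0.63 to 0.20 (median 0.09) in HF-DR, -0.47 to 0.17 (median 0.04) in HF-AL and -0.45 to 0.22 (median 0.06) in t0. The groups overlapped fully, and the difference was 0.0019 ± 0.084 (adjusted p = 0.986). It was called in the Cy5 channel alone, at 0.19, and in the authors' values, at 0.31. Without all 12 arrays with specks it was at -0.089 and not called.

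**Figure D3:**
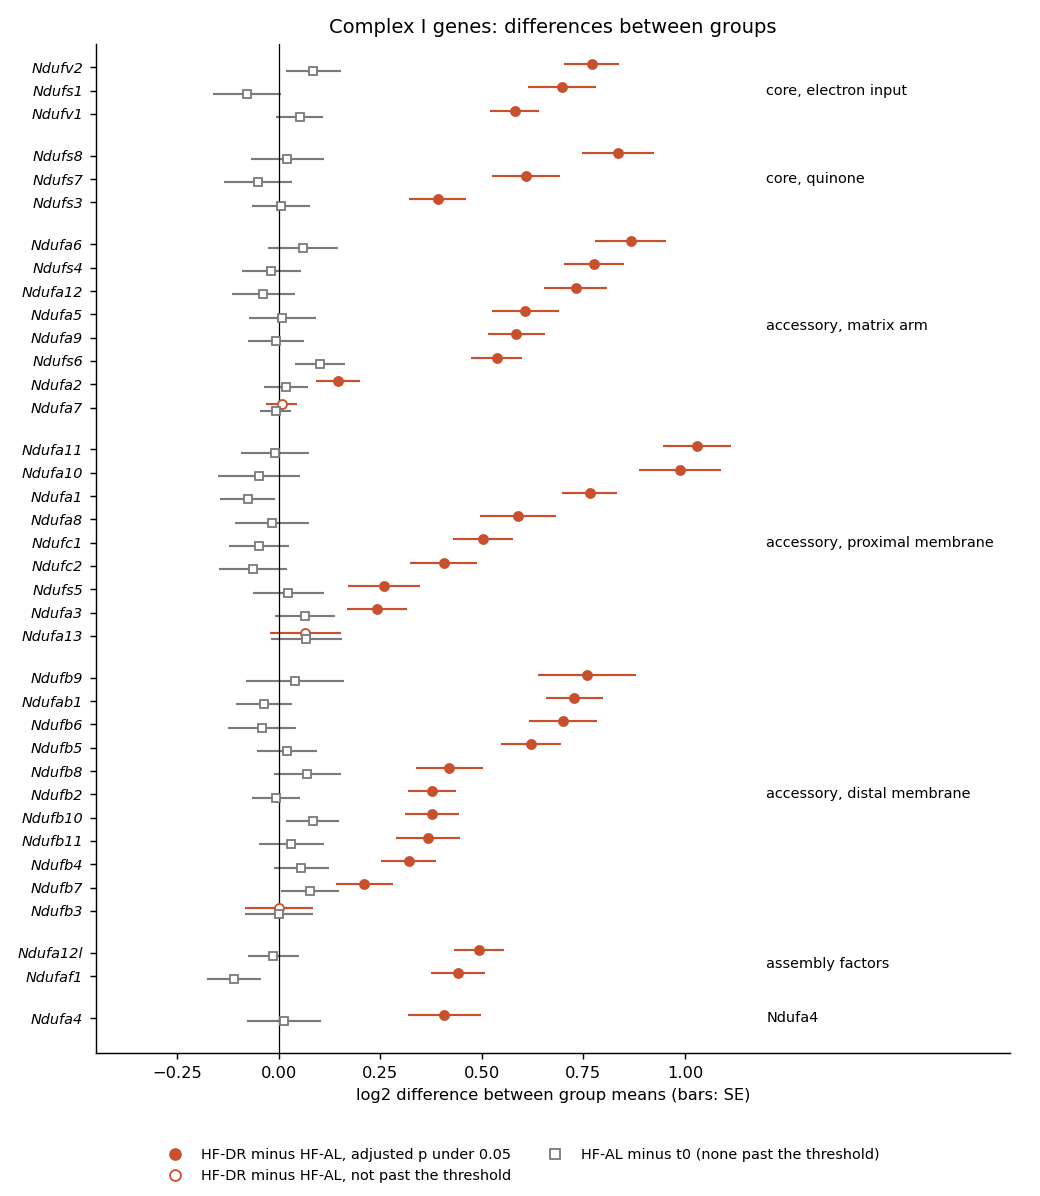
Log2 differences of 37 of the 38 genes between HF-DR and HF-AL (circles, filled where the adjusted p in limma was under 0.05) and between HF-AL and t0 (open squares), with SE bars, n = 11 or 12 per group, arranged by role. The circles lie between 0.0019 and 1.03, and the squares between -0.11 and 0.10.

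Both assembly factors named Nduf rose. Ndufaf1, which helps build the membrane arm, had log2 ratios of -0.01 to 0.58 (median 0.41) in HF-DR, -0.37 to 0.20 (median -0.07) in HF-AL and -0.16 to 0.21 (median 0.06) in t0. Ndufa12l (Ndufaf2), which occupies the place of Ndufa12 late in assembly, had -0.06 to 0.65 (median 0.45) in HF-DR, -0.31 to 0.06 (median -0.09) in HF-AL and -0.30 to 0.18 (median -0.07) in t0. Of 12 HF-DR arrays, 10 lay above both other groups in Ndufaf1 and 11 in Ndufa12l. Their differences between HF-DR and HF-AL were 0.44 and 0.49, with adjusted p of 4.13e-07 and 1.36e-08.

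Ndufa4 had log2 ratios of -0.46 to 0.69 (median 0.40) in HF-DR, -0.35 to 0.11 (median -0.05) in HF-AL and -0.36 to 0.14 (median -0.12) in t0. Of 12 HF-DR arrays, 10 lay above both other groups. It rose by 0.41 ± 0.090 between HF-DR and HF-AL (1.33-fold, adjusted p = 0.000172), a call lost without all 12 arrays with specks (0.27, adjusted p = 0.0622). Its paralog Ndufa4l2 was not analysed here.

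Some complex I genes were listed under other names in the files and were not among the 38. Ndufaf4, an assembly factor listed under an older clone name, was 1.39 higher in HF-DR than in HF-AL (adjusted p = 1.15e-15), and Ndufaf3, Ndufaf5, Ndufaf6 and Ndufaf7 rose by 0.29 to 0.53. The accessory subunit Ndufv3 was -0.11 (adjusted p = 0.103). The mitochondrially encoded core subunit listed as ND4L, chosen after its value was seen, was 0.80 ± 0.099 higher in HF-DR than in HF-AL (adjusted p = 7.87e-09).

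The size of the difference between HF-DR and HF-AL varied with the intensity of the probe. Over the 38 genes, as a description, it had a Pearson correlation of -0.52 and a Spearman correlation of -0.56 with the mean log2 intensity, where over all 16559 genes the Pearson correlation was -0.042. The 19 brighter probes had a median difference of 0.38, and the 19 dimmer ones 0.70. The 3 genes that did not pass the test all had probes among the brighter 19. The points share the arrays and the pool, and the part of intensity in these differences was not tested.

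**Figure D4:**
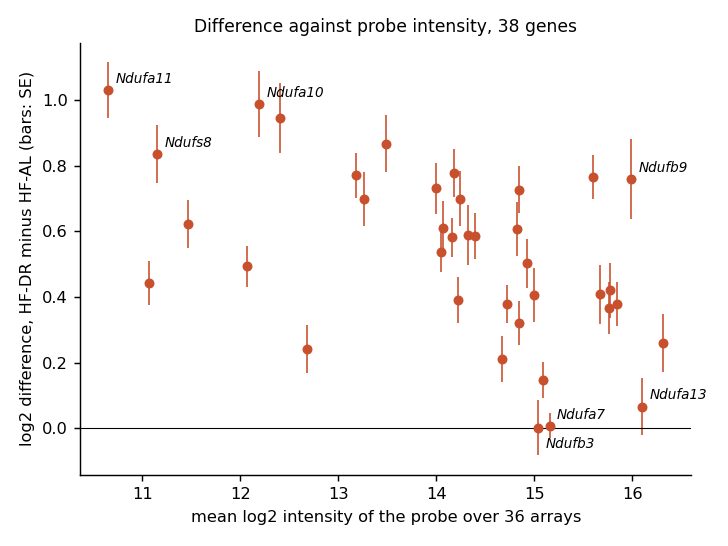
Log2 difference between HF-DR and HF-AL (vertical, SE bars) against the mean log2 intensity of the probe over 36 arrays (horizontal) for the 38 genes, with 7 genes named. The differences of the 19 brighter probes lie between 0.0019 and 0.77, and those of the 19 dimmer probes between 0.24 and 1.03.

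For 13 of the 38 genes the array held further probes. Of 18 such probes 15 passed the filter, 14 of these had the same sign as the probe used and 13 were called up between HF-DR and HF-AL. A further Ndufs1 probe lay on the strand opposite to the first and was not above background on any array.

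No complex I gene passed the test between mice fed freely for 12 more weeks and t0. Between HF-AL and t0, 0 of the 38 genes rose and 0 fell by limma, where 0.435% and 0.211% of all genes did. The median difference was 0.0027, against 0.0058 for all genes. At an unadjusted p under 0.05 there was 1 gene in this comparison. The share of all genes at that threshold was not counted, so this count is not read as a result.

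Differences between HF-AL and t0 were -0.11 in the assembly factor Ndufaf1, 0.10 in the zinc-binding Ndufs6, 0.085 in Ndufv2, 0.084 in Ndufb10 and -0.078 in Ndufs1. The smallest were 0.00062 in Ndufb3, 0.0049 in Ndufs3 and -0.0060 in Ndufa9. None passed the test. The 9 slides that held both groups gave medians of the 38 differences from -0.067 to 0.12.

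The restricted mice were also set against t0, a comparison that shares its HF-DR arrays with the one against HF-AL and its t0 arrays with the one of HF-AL against t0. Of the 38 genes 35 rose in HF-DR relative to t0 and 0 fell, where 28.7% and 33.0% of all genes did. The median difference was 0.57 (all genes -0.015), and Ndufa7, Ndufb3 and Ndufa13 did not pass, at 0.00016, 0.0025 and 0.13. Every HF-DR array with a value lay above every t0 array in 10 genes, against 7.49% of all genes. Of these, Ndufv1 and Ndufb10 had no value on HF-DR 8. Without HF-DR 8 and 9 the count was 30 genes, against 13.1%. There 36 genes rose, where 5023 of all 16559 did, and Ndufa13 was the addition (0.24, adjusted p = 0.00221). Ndufa13 was also called with the slide as a block (0.31, adjusted p = 0.000578).

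The largest differences between HF-DR and t0 were in Ndufa11 (1.02 ± 0.084, 2.03-fold, adjusted p = 5.26e-13), Ndufa10 (0.94), Ndufa6 (0.93), Ndufs8 (0.86), Ndufv2 (0.85 ± 0.068, adjusted p = 1.95e-13) and Ndufb9 (0.80). Side by side, Ndufv1 was 0.63 above t0 and 0.58 above HF-AL. The 6 slides with both groups gave medians of the 38 differences from 0.36 to 0.80.

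The median SD of the 38 genes within a group was 0.25 in HF-DR, 0.15 in HF-AL and 0.14 in t0, and over all genes it was 0.19 in HF-DR, 0.16 in HF-AL and 0.13 in t0. Ndufb9 varied most in HF-DR (SD 0.37), and Ndufa10 in HF-AL (SD 0.30). Without HF-DR 8 and 9 the median SD in HF-DR was 0.14, both over the 38 genes and over all genes, and the SD of Ndufb9 was 0.19.

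The other respiratory complexes, from lists chosen with earlier results of these data known, moved between HF-DR and HF-AL as follows. Of all genes tested, 28.8% rose and 36.0% fell in that comparison. All 9 genes of complex III rose in HF-DR relative to HF-AL (median 0.87), among them Uqcrb at 1.01, Uqcr10 at 0.92 and Cyc1, which encodes cytochrome c1, at 0.90. In complex IV, which reduces oxygen, 10 of 11 rose (median 0.75), among them Cox7b at 1.08, Cox5a at 0.93 and Cox7c at 0.86. In ATP synthase 14 of 15 rose (median 0.49), among them Atp5f1a (listed as Atp5a1), the catalytic core's alpha subunit, at 0.97, Atp5pb (listed as Atp5f1) at 0.85 and Atp5f1d (listed as Atp5d) at 0.49. In complex II and its assembly factors 6 of 8 rose (median 0.66), among them Sdhd, a membrane anchor, at 0.77, and the assembly factors Sdhaf3 (listed as Acn9) at 1.09 and Sdhaf1 at 0.56. Among the genes of these 4 lists 0 fell, and the median of the complex I genes, 0.56, lay between those of ATP synthase and complex II.

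Enzymes that feed ubiquinone by other routes were mixed, with 3 of 8 up and 2 down (median 0.069), where 28.8% of all genes rose and 36.0% fell. Gpd2, the mitochondrial glycerol phosphate dehydrogenase, rose by 2.11 ± 0.14 (adjusted p = 7.66e-16), and Dhodh and Etfdh rose by 0.43 and 0.46. Chdh, choline dehydrogenase, fell by 0.75 and Prodh, proline dehydrogenase, fell by 0.45. Of 14 complex I assembly factors with other names, 10 rose and 2 fell. Chchd4, of the import pathway for cysteine-motif subunits, rose by 0.84, Aifm1 by 0.64 and Tmem70 by 0.58, while Lyrm2 fell by 0.30 and Timmdc1 fell by 0.18.

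Of 15 regulators of mitochondrial gene expression, 6 rose and 3 fell (median 0.13), where 28.8% of all genes rose and 36.0% fell. The ERR alpha receptor Esrra, which acts on many oxidative genes, rose by 0.88 (adjusted p = 1.21e-09) and the mitochondrial transcription factor Tfb2m by 0.81 (adjusted p = 1.38e-10). Nrip1, a corepressor of oxidative genes, fell by 0.91 (adjusted p = 2.56e-12) and Yy1 fell by 0.18. Further regulators were chosen after their values were seen. Of these, the coactivators Ppargc1a and Ppargc1b rose by 1.18 ± 0.15 (adjusted p = 1.9e-08) and 0.82, and Gabpa fell, at -0.10 (adjusted p = 0.0234). Nrf1 at -0.050 (adjusted p = 0.264) and Tfam at 0.13 (adjusted p = 0.201) did not pass the test.

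**Figure D5:**
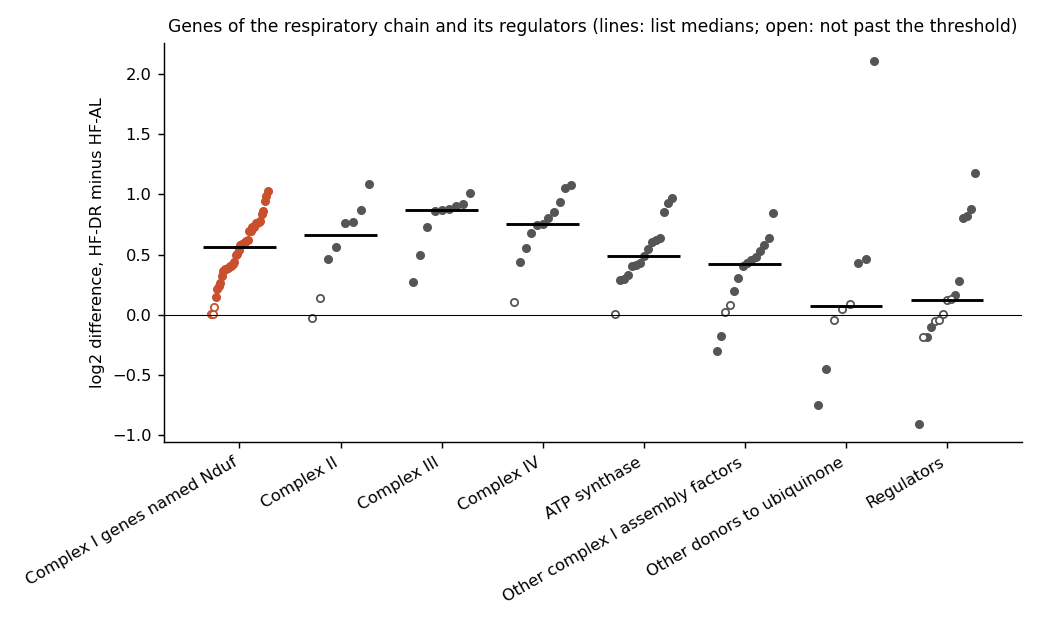
Log2 differences between HF-DR and HF-AL of the 38 complex I genes and of the genes in 7 other lists (points, filled where the adjusted p in limma was under 0.05), with the median of each list as a line. The medians of the complexes lie between 0.49 and 0.87, and those of the other donors to ubiquinone and the regulators at 0.069 and 0.13.

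Markers of cell types moved in the same comparison, in which 28.8% of all genes tested rose and 36.0% fell. Of 4 brown and beige adipocyte genes that passed the filter (Cidea, Cox8b, Dio2 and Elovl3) all 4 rose, and their mean log2 ratio was 0.77 to 2.33 in HF-DR, -1.64 to -1.03 in HF-AL and -1.83 to -1.11 in t0. Ucp1, the defining gene of brown adipocytes, did not pass the filter, and was well above background on 6 of 12 HF-DR, 0 of 12 HF-AL and 3 of 12 t0 arrays. All 7 macrophage genes fell, with means of -1.39 to -0.40 in HF-DR, -0.11 to 0.40 in HF-AL and -0.15 to 0.65 in t0. Of 6 fibroblast and preadipocyte genes 5 fell, with means of -1.28 to -0.79 in HF-DR, 0.07 to 0.47 in HF-AL and 0.09 to 0.49 in t0.

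Of 8 adipocyte genes 4 fell (Lep, Plin, Adipoq and Cidec) and 0 rose, with means of -1.09 to 0.11 in HF-DR, -0.12 to 0.56 in HF-AL and 0.13 to 0.63 in t0. Of 5 endothelial genes 1 rose and 2 fell, near the 28.8% up and 36.0% down of all genes. Of 4 mesothelial genes 3 fell, and all 3 red blood cell genes rose. The muscle genes Ckm and Myh4, whose tissue is rich in complex I, did not pass the filter, being well above background on 3 and 0 of 12 HF-DR arrays, 0 and 1 of 12 HF-AL arrays and 2 and 3 of 12 t0 arrays. Of the other muscle genes, Acta1 was at -0.66 (adjusted p = 0.114) and Mylpf at 0.035 (adjusted p = 0.59). The part of these cell types in the complex I differences was not tested.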

How the data were processed

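Gene expression was measured on 36 two-colour Agilent arrays, 12 per group, with Cy5 on the animal's RNA and Cy3 on an equimolar pool of all samples, in 1 dye orientation. Per the file headers and the submitters' processing notes, the deposited spot intensity values were extracted with Agilent Feature Extraction 9.5.3.1, as mean signals and local backgrounds and as processed signals, with probe coordinates on mm8. The authors also deposited log2 values per probe, whose steps are not given in the sources used here; they followed the Cy5 channel.

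Here, mean signals were background corrected with normexp (offset 50, fitted without specks, spots under -50 after subtraction), and loess-normalised with 4 iterations. Control and outlier spots were left out, spots of a probe were averaged, and a gene was represented by its brightest probe. The filter on dim probes kept genes that Feature Extraction marked as well above background in Cy5 on 9 or more of the 12 arrays in any 1 group. The 3 comparisons were fitted together over 36 arrays with limma 3.58.1 in R 4.3.3, with Benjamini-Hochberg adjustment and a threshold of 0.05. The fit was tested on simulated data. Alternatives covered background, channel, filters, probes, slides, the replicate block and arrays left out.

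The genes and lists were chosen with earlier results of these data known. By the rule on names the 38 genes are accounted for, except 1 counted gene whose own values are not reported here, with values per group for core subunits, Ndufa4, the 6 largest and 3 smallest differences of each comparison and at least 2 genes of each structural list. Of each other pathway list, up to 3 genes with the smallest adjusted p between HF-DR and HF-AL and up to 2 called the other way are named.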

Additional observations from a re-analysis of the deposited data

How the results depend on the processing

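Under 17 other settings, between 29 and 38 of the 38 complex I genes were called up between HF-DR and HF-AL and between 32 and 37 between HF-DR and t0, 0 were called down, and 0 were called between HF-AL and t0. Quantile normalisation of intensities between arrays, counted among the 17, leaves the log2 ratios unchanged, so its result was fixed in advance. The fewest calls up came without all 12 arrays with specks, which leaves 6 HF-DR arrays, HF-DR 8 and 9 among them (29 and 32 genes, medians 0.493 and 0.45). There 4009 and 4185 of all 16559 genes were up, against 4771 and 4752 in the main fit. The planned setting without 10 of these arrays also keeps HF-DR 8 and 9, and gave 31 and 33, with 4098 and 4187 of all genes up. Between HF-DR and HF-AL the calls lost without all 12 were Ndufa2, Ndufa3, Ndufa4, Ndufb4, Ndufb7 and Ndufs5. Without HF-DR 8 and 9 all of these were called, with adjusted p in limma of 0.00129 or less. With the specks kept in the background fit 35 genes were up between HF-DR and HF-AL (median 0.554), and 4361 of all 16559 genes. The part of specks, of fewer arrays and of HF-DR 8 and 9 in the lost calls was not tested. The most calls came with the Cy5 channel alone and with the authors' values. Between HF-DR and HF-AL these settings had 4686 of 16559 and 5163 of 15137 genes up. Asking also for a 1.5-fold change left 18 genes between HF-DR and HF-AL, against 7.97% of all genes. Between HF-DR and t0 it left 17 genes, and the share of all genes was not counted there. With the authors' deposited log2 values the medians were 0.773 and 0.732. Within single slides, with 1 array per group and no test, the medians farthest from the pooled ones were 0.392 on slide 15 between HF-DR and HF-AL, and 0.797 on slide 11 and 0.358 on slide 15 between HF-DR and t0. The cause of these differences was not tested. Without the 7 arrays with transcripts of the male tract (HF-DR 7, 8 and 9, HF-AL 5, 7 and 9, and t0 6), 35 genes were up between HF-DR and HF-AL, with a median of 0.596. Of all 16559 genes, 5084 were up in that setting.

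Replicate numbers were not taken to pair the samples, since not every pair's correlation was over 0.1: same-numbered HF-DR and HF-AL arrays correlated between -0.14 and 0.40 in their deviations from group means (median 0.21, over 0.1 in 9 of 12 pairs), and 2 of 12 correlated best with their own number. With the replicate block 35 genes were up in each comparison with HF-DR and 0 were called between HF-AL and t0, with medians of 0.555 against HF-AL, 0.565 against t0 and 0.00275 between HF-AL and t0. Of all 16559 genes, 4745 were up against HF-AL and 4765 against t0. Averaging the probes of a gene lowered Ndufb2 to 0.013 between HF-DR and HF-AL (adjusted p = 0.805). Dye effects could not be separated, since no dyes were swapped.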
